A study of Mus musculus with 3 samples.

Results

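Transcript levels of 7 genes of the Ras, Raf, MEK and ERK cascade were read from RNA-seq of scratch-wounded fibroblasts of the mouse, grown in primary culture and exposed for 5 h to a soluble micrograft (MG) and the MEK inhibitor PD0325901. The genes were *Hras*, *Nras*, *Araf*, *Braf*, *Map2k1*, *Map2k2* and *Mapk3*, found by their names in the table and by no value or threshold, and they are 7 of the 43472 genes in the table. Of these rows, 20322 had reads in the libraries used, and in each library all 7 genes reached the 10 normalized counts required for a gene to be called detected. The fibroblasts were grown out of the tail tips of C57BL/6 mice, wounded by a scratch, and given a cell-depleted extract of minced mouse skin together with the inhibitor. The 3 libraries are replicates 1, 2 and 3 of this 1 condition. Every library carried both agents, so no level without the inhibitor was compared, and the phosphorylation that PD0325901 acts on is not visible in transcript levels. Whether the replicates came from separate mice is not given in the sources used here. The study calls the fibroblasts adult, and a more exact age and the sex of the mice are not given.

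The cascade carries growth factor signals from the cell surface to the nucleus. *Hras* and *Nras* encode small GTPases that are switched on at the plasma membrane by receptor tyrosine kinases. Active Ras recruits the Raf kinases, here *Araf* and *Braf*, which phosphorylate the dual-specificity kinases MEK1 (*Map2k1*) and MEK2 (*Map2k2*). MEK in turn phosphorylates ERK, of which *Mapk3* encodes the form named ERK1, and ERK acts on transcription factors that include the AP-1 proteins. In wounded skin this route is known for its part in the migration and proliferation of fibroblasts and keratinocytes. PD0325901 is an allosteric inhibitor of both MEK proteins.

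The Raf and the MEK paralogs resemble each other closely, so the coding stretches in which they are most alike are shown first, because a read of 50 bases was assigned to a gene by sequence alone. Each line is the 50-base coding window of a gene with the fewest differences from its paralog, taken from the GENCODE M21 transcripts, and capitals mark the bases that differ.
Araf: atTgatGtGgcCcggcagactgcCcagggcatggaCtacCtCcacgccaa
Braf: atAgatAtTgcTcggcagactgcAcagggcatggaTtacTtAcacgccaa
Map2k1: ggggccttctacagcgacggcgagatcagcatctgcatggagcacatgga
Map2k2: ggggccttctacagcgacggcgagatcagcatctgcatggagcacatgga
The Raf windows, at coding bases 1213 to 1262 of *Araf* and 1771 to 1820 of *Braf*, differ at 8 bases. The MEK windows, at coding bases 391 to 440 of *Map2k1* and 403 to 452 of *Map2k2*, are identical and lie in an identical run of 56 bases. The longest identical run of the Raf pair was 17 bases. Since only uniquely mapped reads were kept, a read inside the shared MEK run could be given to neither gene, which concerned 7 of the 3385 possible 50-base windows of *Map2k1* (0.207%). With up to 2 mismatches, as the alignment allowed, 34 *Map2k1* windows (1.00%) matched *Map2k2*, and no other gene matched. Across the 7 genes the share of windows found in another annotated gene with up to 2 mismatches ran from 0.0505% in *Hras* to 8.51% in *Mapk3*. For *Mapk3* the matching genes were *Gm15546*, *Gm7746*, *Gm5675* and *Gm6171*. For *Braf* the share was 1.82%, in *Ndufb2* and *Gm18189*. The share with an exact match ran from 0% in *Hras* to 1.13% in *Araf*, and for *Mapk3* it was 1 of 2339 windows (0.0428%). Exons of *Braf* overlap those of *Ndufb2* on the opposite strand over 146 bases, and those of *Araf* overlap *Syn1* over 9 bases. The library kit keeps strand, but whether HTSeq used it is not stated, which leaves reads in these overlaps uncertain.

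The libraries held 22540518, 27037783 and 17244505 reads on genes in replicates 1, 2 and 3. Replicate 2 stood apart, as Pearson's r across the 12204 detected genes (log2 scale) was 0.939 with replicate 1 and 0.948 with replicate 3, against 0.974 for the remaining pair. These are described across genes, which are not independent replicates. All 8 fibroblast markers were detected, and their summed level was 345263, 371184 and 511183 normalized counts. Among them *Col1a1*, *Vim* and *Col1a2* had the highest means, 185951, 94555 and 89648 normalized counts. Lowest in replicate 2 were *Lum* (5073, 289 and 1164), *Dcn* (3661, 1723 and 3659) and *Col1a1*, 3 of the 8 markers, against 37.3% of detected genes. *Col1a2*, *Col3a1*, *Pdgfra*, *Pdgfrb* and *Vim* were lowest in replicate 1. Keratinocyte markers summed to between 34.4 and 81.6 normalized counts, nearly all from *Krt10*, while *Krt1*, *Krt15* and *Dsg3* had no read in any library. Endothelial markers summed to 90.3, 244 and 55.7, of which *Tek* gave 185 in replicate 2, and *Emcn* had no read. Leukocyte markers summed to 150.2, 104 and 691, mostly *Lyz2*, which was highest in replicate 3. So were *Laptm5* (1.74, 4.93 and 36.7), *Tyrobp* (0, 2.11 and 15.4) and *Cd52* (0.868, 0.705 and 9.48). *Cd68* (22.6, 33.1 and 27.3) was highest in replicate 2, and *Ptprc*, at no more than 1.74 normalized counts, in replicate 1. Muscle markers summed to 214, 1208 and 81.8, nearly all *Des*, with *Myod1* at 0 in every library. The part of these marker levels in the differences between libraries was not tested. A count of 0 allows up to 3 reads, equal to 2.61, 2.11 and 3.56 normalized counts in the 3 libraries, which covers counting error only. In these bulk samples fewer cells of a type and less RNA per cell cannot be told apart.

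Both Ras genes were well expressed, and each had its own order of the libraries. *Hras* (chr7:141189105-141194005, minus strand, GRCm38), a GTPase anchored by farnesyl and palmitoyl groups, reached 3059 normalized counts in replicate 1, 2324.5 in replicate 2 and 3099 in replicate 3. They averaged 2828 ± 436 (SD, n = 3). Replicates 1 and 3 were alike, with a 1.01-fold ratio whose 95% exact (Clopper-Pearson) counting interval ran from 0.963 to 1.07, and replicate 2 lay below both. The *Hras* level of replicate 3 was 1.33-fold that of replicate 2 (interval 1.27 to 1.40, adjusted p = 7.91e-27, two-sided exact binomial test between the libraries).
*Nras* (chr3:103058285-103067914, plus strand), which is also palmitoylated, was at 2280.3, 1848 and 1757 normalized counts in the same order, averaging 1962 ± 279.7 (SD, n = 3). Here replicate 1 was the high library, 1.23-fold above replicate 2 and 1.30-fold above replicate 3. Replicates 2 and 3 were not told apart, at a 1.05-fold ratio in favour of replicate 2 with an interval of 0.987 to 1.12.

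Of the Raf kinases, *Araf* was the steadiest of the 7 genes between libraries and *Braf* the lowest. *Araf* (chrX:20797814-20860519, plus strand) was at 1843, 1667 and 1949.8 normalized counts, averaging 1819.8 ± 143 (SD, n = 3), a range of 1.17-fold. Its replicates 1 and 3 did not differ beyond counting error (1.06-fold, interval 0.992 to 1.13), and replicate 2 was lower.
*Braf* (chr6:39603237-39725463, minus strand), the Raf kinase with the highest basal activity towards MEK, was at 609.6, 738 and 520.3 normalized counts, averaging 623 ± 109 (SD, n = 3). Replicate 2 was its highest library, which held for no other gene of the 7 (for *Map2k1* too when libraries were scaled to equal totals), and stood 1.42-fold above replicate 3 (interval 1.27 to 1.59, adjusted p = 1.35e-09, exact binomial test). *Braf* rested on the fewest reads, 702, 1047 and 439, so that counting alone gave an error of 4.77% in replicate 3. For the other 6 genes the fewest reads in any library were 1482 (*Nras*, replicate 3).

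The targets of the inhibitor, MEK1 and MEK2, were both abundant as transcripts. On the deposited scale they went opposite ways from replicate 1 to replicate 2, which did not hold after the correction for GC content and length described below. *Map2k1* (chr9:64185770-64253631, minus strand) was at 2711, 3322 and 3457 normalized counts, averaging 3164 ± 398 (SD, n = 3). Replicate 1 was the low library, and replicates 2 and 3 differed by 1.04-fold, within an interval of 0.993 to 1.09.
*Map2k2* (chr10:81105915-81133975, plus strand) was at 2661, 2178 and 3161 normalized counts, averaging 2667 ± 492 (SD, n = 3). All 3 libraries differed beyond counting error, with replicate 2 lowest and replicate 3 highest. From replicate 1 to replicate 2, *Map2k1* was 1.23-fold higher (interval 1.17 to 1.28) while *Map2k2* was 0.819-fold (interval 0.778 to 0.861).

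*Mapk3*, the ERK1 gene (chr7:126759601-126765819, plus strand), was at 2478, 2086 and 3146 normalized counts across replicates 1 to 3. The average was 2570.1 ± 536 (SD, n = 3), and *Mapk3* had the widest range of the 7 genes on the deposited scale, with replicate 3 at 1.51-fold replicate 2 (interval 1.43 to 1.59, adjusted p = 2.31e-51, exact binomial test between the libraries). Replicate 2 was the lowest and replicate 3 the highest, as for *Map2k2*.

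**Figure D1:**
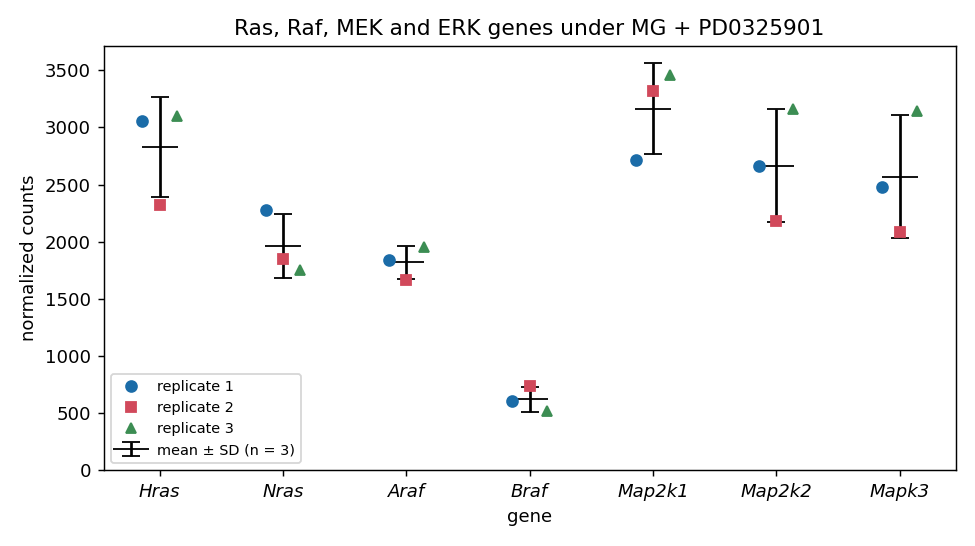
Normalized counts (y axis) of the 7 genes (x axis) in each library, with a symbol for each replicate and bars for the mean ± SD (n = 3). *Braf* lies between 520.3 and 738 normalized counts, below every value of the other genes, and the lowest square (replicate 2) is seen for *Hras*, *Araf*, *Map2k2* and *Mapk3*.

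The plot of levels by library shows that no gene was near the limit of detection. Summed, the 7 genes took 0.0799%, 0.0743% and 0.0836% of all reads on genes in replicates 1, 2 and 3. Their summed level was 15632 ± 1463 normalized counts (SD, n = 3), a 1.21-fold range. *Map2k1* ranked 1169 and *Braf* 5443 by mean level among all 43472 rows, before any account of length.

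Longer transcripts collect more reads, so the order of the genes was read per kb of exons. *Mapk3* was first with 1139 ± 237 normalized counts per kb (SD, n = 3), followed by *Map2k1* with 933 ± 117 and *Hras* with 757 ± 117. The libraries of neighbours in this order overlapped, with *Mapk3* above *Map2k1*, and *Map2k1* above *Hras*, in 2 of the 3 libraries. *Mapk3* was above *Hras* in all 3, without overlap. *Map2k2* (471 ± 86.8 per kb) and *Nras* (368 ± 52.5 per kb) came next, with *Map2k2* higher in all 3 libraries although the ranges of both overlap. *Araf* had 278 ± 21.8 per kb and *Braf* 44.9 ± 7.88 per kb. *Map2k2* was below *Hras*, *Araf* below *Nras*, and *Braf* below *Araf*, without any overlap of their libraries.
Which annotated exons the cells used was not measured, so the same levels were also divided by other lengths. Per kb of the longest transcript, *Map2k2* (1109 ± 204) ranked 3, above *Hras* (999.9 ± 154), and *Araf* (638 on average) stood above *Nras* (439 ± 62.6) in every library. Per kb of coding length, *Hras* (4987 ± 769) and *Nras* (3459.7 ± 493) came first, since both have the shortest coding sequence of the 7, 567 bases. *Braf* was last under all 3 lengths, in every library.

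**Figure D2:**
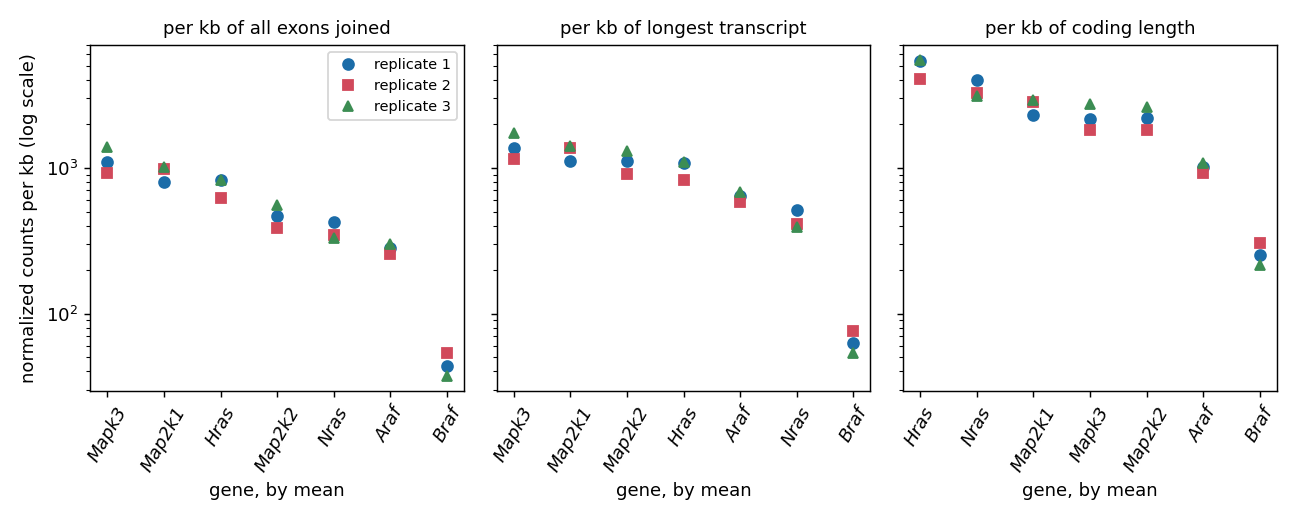
Normalized counts per kb (y axis, log scale) in each library for the 7 genes (x axis, ordered by mean), with 3 definitions of gene length side by side. *Braf* stays last in each panel, from 44.9 per kb of all exons to 258 per kb of coding length, while *Hras* moves from rank 3 or 4 to rank 1.

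The plot of levels per kb shows which paralog ratios depend on the length used. Within the Ras pair, the *Hras* level per kb of exons was 1.92-fold, 1.80-fold and 2.52-fold that of *Nras* in replicates 1, 2 and 3. The mean log2 ratio was 1.04 ± 0.26 (SD, n = 3), and *Hras* was higher in every library under all 3 lengths.
Within the Raf pair, the *Araf* level per kb was 6.40-fold, 4.79-fold and 7.93-fold that of *Braf*. Its mean log2 ratio of 2.64 ± 0.37 (SD, n = 3) became 3.33 with the longest transcript and 1.97 with the coding length, that is, between 3.92-fold and 10.0-fold, so the direction was shared by all lengths and the size was not.
Within the MEK pair, the *Map2k1* level per kb was 1.70-fold, 2.55-fold and 1.83-fold that of *Map2k2*, a mean log2 ratio of 0.99 ± 0.31 (SD, n = 3). With the longest transcript the folds were 1.01, 1.51 and 1.08, a mean log2 ratio of 0.24, less than its SD of 0.31. *Map2k1* was still above *Map2k2* in all 3 libraries, but the ranges of their levels overlap under that length. With 3 libraries an exact two-sided sign test cannot go below p = 0.25, so no test of these ratios was made.

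Differences between libraries were tested on read counts for each pair, with Benjamini-Hochberg adjustment over all genes at a threshold of 0.05. All 7 genes differed between replicates 1 and 2, against 69.1% of all genes tested. In replicate 2, *Braf* and *Map2k1* were higher (36.0% of all genes) and the other 5 were lower (33.1%). The comparison of replicates 1 and 3 called 5 of the 7 (52.0% of all genes), with *Map2k1*, *Map2k2* and *Mapk3* higher in replicate 3 (26.5%) and *Nras* and *Braf* lower (25.5%). That of replicates 2 and 3 also called 5 of the 7 (62.6% of all genes), with *Hras*, *Araf*, *Map2k2* and *Mapk3* higher in replicate 3 (30.5%) and *Braf* lower (32.1%). With a difference of over 2-fold required as well, none of the 7 genes was called in any pair, against 20.5%, 9.32% and 16.5% of all genes for the pairs in that order. These tests compare single libraries, not conditions, and cover counting error only. With 439 reads or more behind each value, small differences can pass them.
In size the differences were small. A range between libraries of over 2-fold was seen in none of the 7 genes and in 22.0% of the 12204 detected genes, and 1.5-fold was passed by *Mapk3* alone of the 7 and by 48.8% of detected genes. With the libraries scaled to equal totals, *Braf* (1.52-fold) and not *Mapk3* (1.41-fold) was the gene past 1.5-fold and the widest of the 7. The SD of log2(normalized count + 1) between libraries had a median of 0.23 over the 7 genes and 0.30 over all detected genes. Each of the 7 stood below the median detected gene, from percentile 11.1 for *Araf* to percentile 49.9 for *Mapk3*. Among the 6175 detected genes with a mean of at least 500 normalized counts, the median SD was 0.26 and the median range 1.40-fold. All 7 genes pass that minimum. *Map2k2* (0.27) and *Mapk3* (0.30) were above that SD and the rest below it. *Braf* (1.42-fold), *Map2k2* (1.45-fold) and *Mapk3* (1.51-fold) were above that range and the rest below it. The lowest library was replicate 2 for *Hras*, *Araf*, *Map2k2* and *Mapk3* (37.3% of detected genes), replicate 3 for *Nras* and *Braf* (28.3%) and replicate 1 for *Map2k1* (34.5%). Replicate 3 was the highest for 5 of the 7 (27.9% of detected genes), replicate 1 for *Nras* (31.5%) and replicate 2 for *Braf* (40.6%). Without replicate 2 the ranges were 1.01-fold for *Hras*, 1.06-fold for *Araf*, 1.17-fold for *Braf*, 1.19-fold for *Map2k2*, 1.27-fold for *Mapk3*, 1.28-fold for *Map2k1* and 1.30-fold for *Nras*. Under equal totals replicate 3 was the highest for *Araf*, *Map2k2* and *Mapk3* only of the 7.

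On the deposited scale the genes fell into different patterns across the libraries. *Map2k2* and *Mapk3* were the closest of the 21 pairs, with a root mean square difference of 0.04 between their centred log2 values. *Hras* followed, at 0.09 from *Map2k2*. *Braf* lay farthest from them, at 0.45 from *Mapk3* and 0.43 from *Map2k2*. Paralogs were not each other's nearest, with 0.21 for *Hras* and *Nras*, 0.30 for *Araf* and *Braf* and 0.25 for *Map2k1* and *Map2k2*. Each of these rests on 3 libraries and on values before the correction for GC content and length described below.
*Araf*, at 0.11 from *Hras*, 0.13 from *Map2k2* and 0.15 from *Mapk3*, had the same lowest and highest library as these 3 genes. GC content differed among these 4 genes. The longest transcript had 60.4% GC in *Map2k2*, 57.6% in *Mapk3* and 55.2% in *Hras*, all in the top quartile of detected genes. It was 45.4% in *Araf* (quartile 2), 51.2% in *Map2k1* (quartile 3) and 42.6% in both *Nras* and *Braf*, in the lowest quartile. On the log2 scale, replicate 2 minus the mean of the others was -0.41, -0.42 and -0.41 for *Map2k2*, *Mapk3* and *Hras*, and 0.39 for *Braf*. It was -0.19 for *Araf*, -0.11 for *Nras* and 0.12 for *Map2k1*. Across detected genes the median of that difference was 0.15, 0.06, -0.03 and -0.09 from the lowest to the highest GC quartile, so *Nras*, *Araf* and *Map2k1* had the opposite sign to their quartiles. By transcript length it was -0.29, -0.03, 0.12 and 0.30 from the shortest to the longest quartile. *Mapk3* (1800 bases) is in the shortest and *Braf* (9728 bases) in the longest. *Hras*, *Araf*, *Map2k1* and *Map2k2* are in quartile 2, where *Map2k1* had the opposite sign to the median, and *Nras* is in quartile 3 and had the opposite sign too.

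**Figure D3:**
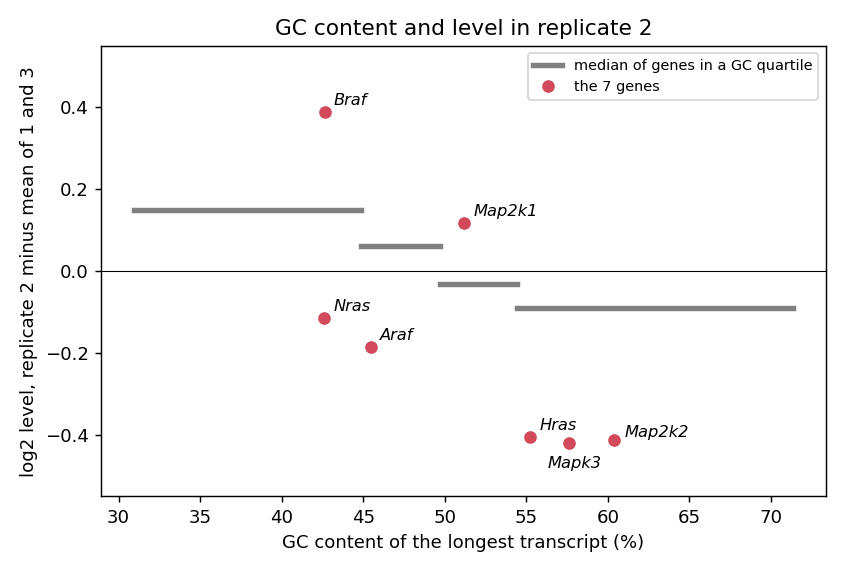
The log2 level in replicate 2 minus the mean of replicates 1 and 3 (y axis) against the GC content of the longest transcript (x axis, %) for the 7 genes, with grey lines for the median of all detected genes in each GC quartile. *Hras*, *Mapk3* and *Map2k2* sit near -0.41 in the top quartile and *Braf* at 0.39 in the lowest, farther from 0 than the quartile medians of -0.09 and 0.15.

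The plot of GC content also shows *Nras* and *Araf* below, and *Map2k1* above, the medians of their quartiles. After the median of genes of like GC content and length was taken out of each library, the range between libraries fell from 1.45-fold to 1.17-fold for *Map2k2*, from 1.51-fold to 1.25-fold for *Mapk3*, from 1.33-fold to 1.22-fold for *Hras* and from 1.42-fold to 1.19-fold for *Braf*. It rose for *Nras*, from 1.30-fold to 1.44-fold, for *Map2k1* from 1.28-fold to 1.36-fold, and for *Araf* from 1.17-fold to 1.21-fold. *Braf* and *Hras* were then highest in replicate 1. *Map2k2* had nearly the same corrected value in replicates 1 and 2 (-0.08 and -0.07 on the log2 scale). *Map2k1* was still lower in replicate 1 (-0.25) than in replicate 2 (0.19). No corrected ranges of all detected genes are given beside these. The part of GC content and length in the differences between libraries was not tested further.

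**Figure D4:**
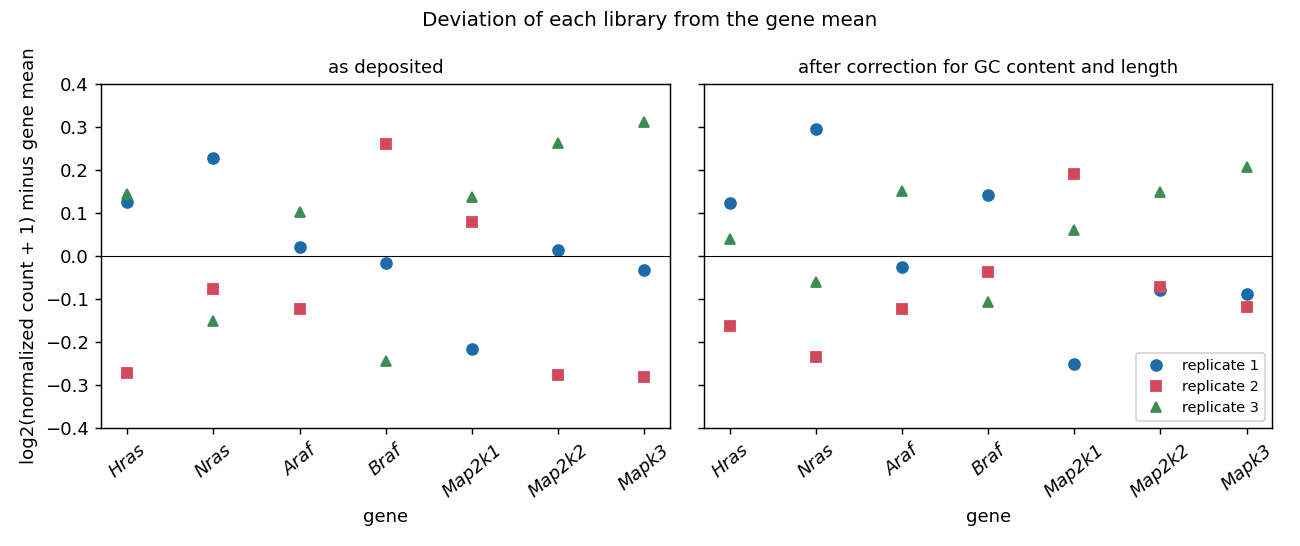
Deviation of log2(normalized count + 1) in each library from the mean of its gene (y axis) for the 7 genes (x axis), as deposited (left) and after correction for GC content and length (right), with a symbol for each replicate. The replicate 2 values of *Hras*, *Map2k2* and *Mapk3*, between -0.28 and -0.27 on the left, lie between -0.16 and -0.07 on the right.

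The plot of deviations shows *Nras* and *Map2k1* as the genes with the widest spread after correction, with an SD of 0.27 and 0.23 on the log2 scale. The largest deviation of each was in replicate 1, where *Nras* was high and *Map2k1* low, as on the deposited scale.

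Promoters of 6 of the 7 genes were read from RefSeq (GRCm38.p6), each running from 250 bases before to 50 bases after the start site. Shown are those of *Braf*, *Hras* and *Map2k2*. On the deposited scale *Braf* lay apart from the rest, and *Hras* and *Map2k2* lay close to each other across the libraries. After correction for GC content and length *Braf* had the smallest SD of the 7 genes (0.128 on the log2 scale). It was then no longer highest in replicate 2. Corrected values of *Hras* were 0.12, -0.16 and 0.04 in replicates 1, 2 and 3, and those of *Map2k2* were -0.08, -0.07 and 0.15. *Hras* was then highest in replicate 1 and *Map2k2* in replicate 3. Any part of promoter motifs in these patterns was not tested. Capitals mark matches to GGGCGG (GC box, bound by Sp1) and TGACGTCA (cAMP response element, CRE), on either strand. The CRE is bound by CREB and ATF proteins, and some ATF proteins also pair with AP-1 proteins.
Braf, chr6:39725414-39725713, minus strand: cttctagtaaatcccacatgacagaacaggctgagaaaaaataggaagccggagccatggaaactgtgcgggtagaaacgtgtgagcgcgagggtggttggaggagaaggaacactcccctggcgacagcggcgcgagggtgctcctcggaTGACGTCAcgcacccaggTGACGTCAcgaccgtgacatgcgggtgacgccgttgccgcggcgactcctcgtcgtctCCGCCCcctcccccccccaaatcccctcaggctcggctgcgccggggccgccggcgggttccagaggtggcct
Hras, chr7:141193955-141194254, minus strand: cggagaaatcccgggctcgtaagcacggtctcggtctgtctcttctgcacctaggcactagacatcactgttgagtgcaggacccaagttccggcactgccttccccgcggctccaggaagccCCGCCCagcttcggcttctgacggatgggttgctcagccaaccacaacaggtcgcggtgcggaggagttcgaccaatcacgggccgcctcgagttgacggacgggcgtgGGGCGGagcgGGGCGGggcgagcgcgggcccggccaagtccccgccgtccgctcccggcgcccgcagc
Map2k2, chr10:81105665-81105964, plus strand: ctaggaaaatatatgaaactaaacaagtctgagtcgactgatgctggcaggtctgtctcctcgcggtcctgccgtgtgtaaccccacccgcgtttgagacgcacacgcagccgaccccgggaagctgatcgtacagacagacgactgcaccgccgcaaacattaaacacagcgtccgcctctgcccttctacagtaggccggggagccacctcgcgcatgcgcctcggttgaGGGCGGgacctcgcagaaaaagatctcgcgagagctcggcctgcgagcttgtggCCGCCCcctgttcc
*Braf* held 2 CRE matches, starting at -99 and -81 from the start site, and was the only one of the 6 with this motif, which 1.79% of the 32851 promoters in the table hold. GC boxes were found in 5 of the 6 promoters, *Araf* being without one, against 35.7% of all promoters, which were not matched for GC content. The AP-1 motif TGANTCA, held by 7.81% of all promoters, and the ETS motif CCGGAAGT, held by 3.89%, had no match in these 6 windows. The CRE and GC box matches of *Braf* do not overlap. The promoters of the 6 genes had a GC content between 52.0% (*Araf*) and 69.0% (*Hras* and *Map2k1*), and the median of all promoters was 52.7%. A match is a description of the letters, and binding was not measured here.

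Genes around the cascade were counted from lists of 83 genes, of which 71 were detected in every library. A range of over 2-fold was seen in 10 of these (14.1%), against 22.0% of all detected genes. Replicates 1 and 2 differed in 62 of 78 tested genes. For replicates 1 and 3 the number was 46 of 75, and for replicates 2 and 3 it was 64 of 78. The shares of all genes called are those given above, 69.1%, 52.0% and 62.6%.
Among 9 other Ras, Raf and ERK genes, all were detected and none had a range over 2-fold. *Rras*, a Ras relative tied to cell adhesion, was the widest of those reported here, with 2615, 1365 and 2426 normalized counts. *Rap1b*, a GTPase of integrin activation, had 6772, 4762 and 5961 normalized counts, and *Rras2* had 3552, 3119 and 2280.5. *Rap1a* had 1099 ± 172, *Rit1* 1637 ± 353 and *Mras*, the GTPase of the Shoc2 phosphatase complex, 481 ± 111 normalized counts (SD, n = 3).

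Upstream of Ras, 8 of 12 adaptors and exchange factors were detected. The phosphatase gene *Ptpn11* (SHP2) had 4805, 7258 and 6737 normalized counts and the adaptor gene *Shc1* had 3677, 3134 and 3804. The exchange factor gene *Rasgrp3* was the widest with a low level and a 2.58-fold range, at 406, 188 and 158. In this list 9 of 11 tested genes differed between replicates 1 and 2, 5 higher and 4 lower in replicate 2, against 69.1% of all genes called, 36.0% higher and 33.1% lower.
Of 8 GTPase-activating proteins, which switch Ras off, 7 were detected and 3 had a range over 2-fold. *Rasa3* had 437, 1005 and 363 normalized counts, with replicate 2 high. *Dab2ip* (1882, 1856 and 2129) and *Rasa2* (992, 709.5 and 811) had the highest means of the list. Of the 7 tested, 6 differed between replicates 1 and 2, 5 of them higher in replicate 2, against 69.1% of all genes called and 36.0% called higher.

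Among the 21 scaffolds and Raf regulators, 19 were detected. *Ksr1*, a scaffold that holds Raf, MEK and ERK in 1 complex, had the widest range of the pathway genes named, 6.49-fold, with 123, 485 and 74.7 normalized counts. As in *Braf*, replicate 2 was the highest and replicate 3 the lowest. The chaperone gene *Hsp90ab1*, whose protein stabilizes Raf kinases, had 27717, 38606 and 34192 normalized counts, and the 14-3-3 gene *Ywhag* had 15548, 20347 and 18112. Of the 19 tested, 9 were higher and 9 lower in replicate 2 than in replicate 1, against 36.0% and 33.1% of all genes.
All 8 genes of Ras lipid modification and transport were detected and none had a range over 2-fold. From replicate 1 to replicate 2, 6 of the 8 differed, all lower in replicate 2, against 69.1% of all genes called and 33.1% called lower. *Rce1*, the protease that trims farnesylated Ras, had 488, 290.3 and 497 normalized counts. *Icmt*, the methyltransferase that follows it, had 2114, 2029.97 and 2659, and *Golga7*, a subunit of a Ras palmitoyltransferase, had 2419, 1790.4 and 1548.

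Of the 8 kinases downstream of ERK, 7 were detected. The MSK2 gene *Rps6ka4* had 1671, 1848 and 2158 normalized counts, and the RSK2 gene *Rps6ka3* had 736, 1321 and 763. Between replicates 1 and 2, 4 of 8 differed, all higher in replicate 2, against 69.1% of all genes called and 36.0% called higher.
In the parallel MAP kinase cascades, 13 of 17 genes were detected. *Map2k3*, the p38 kinase kinase MKK3, had 4376, 2682 and 4439 normalized counts, low in replicate 2 as *Map2k2* was. *Mapk6*, which encodes the atypical kinase ERK3, had 3021, 3109 and 3168, a range of 1.05-fold. *Mapk12* (p38 gamma) had 84.2, 250.1 and 102 normalized counts.

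**Figure D5:**
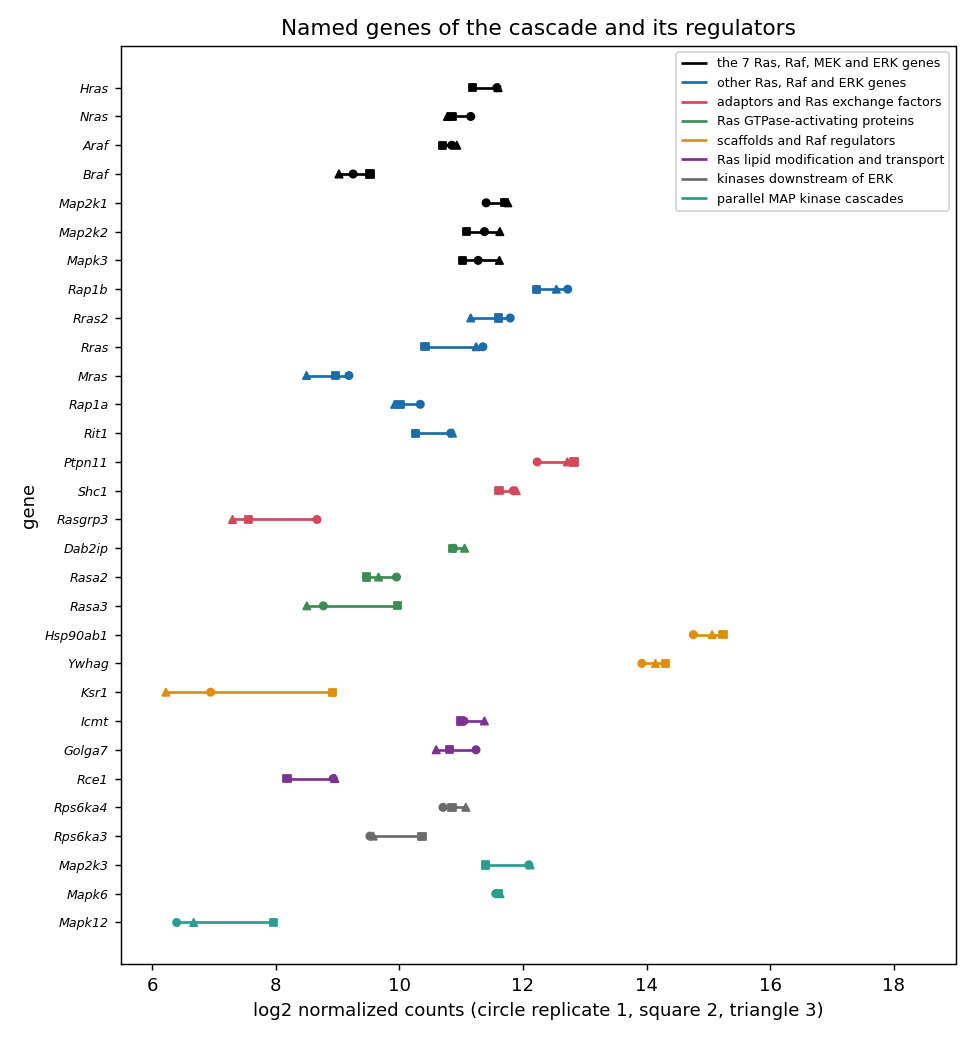
The log2 normalized counts (x axis) of the 7 genes and the named genes around them (y axis), 1 line a gene from its lowest to its highest library, with a symbol for each replicate and colours for the lists. The lines of the 7 genes span at most 1.51-fold, and that of *Ksr1* spans 6.49-fold.

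The plot of named genes shows counts that were not divided by length, so levels are compared along a line and not between lines. Many genes outside the cascade lay near the mean centred profile of the 7 genes, an average over the different patterns described above. That profile was nearly flat, at 0.02, -0.10 and 0.08 in replicates 1, 2 and 3, so genes that hardly vary also lie near it. From the mean centred profile of the 7 genes, *Wwtr1*, *Loh12cr1* and *Dgcr14* had the smallest root mean square differences, 0.0019, 0.0035 and 0.0048 on the log2 scale. *Wwtr1* had 2989.7, 2758 and 3114 normalized counts. Of 12192 genes compared, 1406 (11.5%) lay within 0.1 of the profile, so likeness over 3 libraries singles out no gene.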

How the data were processed

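Transcript levels were measured in 3 libraries of 1 condition, MG + PD0325901, grouped by their titles. The table has 3 more columns of samples, left out here because they match no sample label. The values deposited by the authors are a signal, namely read counts per gene that were divided by a size factor of the library (normalized counts). Per the study's methods and the submitters' processing notes, reads were aligned to mm10 with TopHat (TopHat2 2.0.13), counted with HTSeq 0.5.3p3 and normalized with DESeq. The annotation, the strand setting and the DESeq version are not given in the sources used here. All values (100%) were multiples of what 1 read is worth, within 0.1%, so reads were recovered, with size factors of 1.15, 1.42 and 0.844.

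Detected means at least 10 normalized counts in every library. Log2 values carry a pseudocount of 1. The recovered reads of each pair of libraries were tested per gene with an exact binomial test (two-sided) where the pair held 10 reads or more, and p was adjusted by Benjamini-Hochberg over every gene tested. The test was checked on counts simulated with counting error only and with 2-fold changes in some genes. That check therefore says nothing about variation between replicates. Counting intervals are exact (95%), and as reads carried no molecular identifiers, they cover counting error only. Lengths, positions and GC content came from GENCODE M21 (GRCm38, the build mm10), with 95.2% of detected genes matched. Windows of 50 bases were aligned to all GENCODE transcripts with bwa, allowing 2 mismatches. TMM factors came from edgeR 4.0.16 (R 4.3.3), and Python 3.11.15 with scipy 1.17.1 and pandas 2.3.3 did the rest.

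The members were found by name and not by value, but they and the lists were proposed with earlier results of these data known. Beside the 7 genes, the text names for each pathway list the 2 of highest mean and the 1 of widest range, the Ras relatives by value, and the 3 genes closest to the mean profile. The cell type markers given by value were chosen after their values were seen. Of the 9 other Ras, Raf and ERK genes, 3 are counted in that list but their values are not reported here. Alternatives were other scalings, pseudocounts, lengths, fold limits and each replicate left out. The GC and length correction (20 bins each) and the minimum mean of 500 were chosen after seeing the data.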

Additional observations from a re-analysis of the deposited data

How the results depend on the processing

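No paired analysis was possible because the libraries form a single group. Under TMM scaling, equal totals and no minimum of reads, the numbers of the 7 genes that differed between libraries stayed within 1.5 times. Requiring a difference of over 2-fold made each of the 3 numbers 0. At a limit of 1.5-fold, 1 gene had so wide a range. The median SD of the 7 genes was 0.15 after correction for GC content and length, and between 0.18 and 0.29 with each replicate left out. No corrected SD of all detected genes is given beside the 0.15. The log2 ratio of *Hras* to *Nras* became 0.52 per coding length. That of *Araf* to *Braf* became 3.33 with the longest transcript and 1.97 per coding length, and that of *Map2k1* to *Map2k2* 0.24 and 0.28, which follows from the lengths. The ranks per kb moved with length in 9 cases, for the same reason. Mean levels moved by at most 0.449% under TMM or equal totals. Leaving out a replicate cannot move a mean of 3 values by 1 SD, so it says nothing about their stability. The log2 ratios then ranged from 0.89 to 1.14 (*Hras* to *Nras*), 2.47 to 2.83 (*Araf* to *Braf*) and 0.82 to 1.11 (*Map2k1* to *Map2k2*).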
